A study of Mus musculus with 4 samples.

Results

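Notch pathway expression was examined in node-containing tissue of mouse embryos that differed at the Noto locus. Noto encodes a homeobox transcription factor made in the node and notochord. The 10 genes described are the receptors Notch1 and Notch2, the ligands Dll1, Dll3 and Jag1, the receptor-modifying enzyme Lfng, and the target genes Hes1, Hes5, Hes7 and Hey1. They were found by gene name or accession among 41174 gene probes, and 15 probes matched them. All 10 genes were measured, out of 18612 genes measured in all. The tested RNA came from Noto GFP/GFP embryos, which carry GFP at Noto on both chromosomes, and was set against RNA of Noto GFP/+ heterozygotes. Both genotypes carried at least 1 GFP allele on an Sv129/CD-1 hybrid background and were taken at the early headfold stage, approximately E7.75 (embryonic day). No embryo without the GFP allele was part of the comparison. The distal piece with the node was cut off, and pieces of 120 to 150 embryos were pooled. The label fields differ on how large this piece was, and the node was only a part of it. Each genotype has 1 RNA pool, hybridised on 2 two-colour arrays, so its 2 samples are technical repeats. The homozygote carried Cy5 on array 1 and Cy3 on array 2.

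Notch receptors are activated by ligands of the Delta and Jagged families on neighbouring cells. Activation frees the receptor's intracellular domain, which joins the DNA-binding protein RBPJ and switches on genes of the Hes and Hey families, themselves repressors of transcription. In the mouse, this pathway is required for Nodal expression beside the node, and in the presomitic mesoderm it drives the segmentation clock, in which Hes7 and Lfng cycle.

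Ratios are given as log2 of GFP/GFP over GFP/+, so a positive value means more signal in the homozygote. Levels are normalised log2 intensities of 1 probe in 1 sample, and levels of different probes are not comparable. With 1 pool per genotype no test was made, and the SD over the 2 arrays covers technical spread only. A gene was called when both arrays gave a 1.5-fold or larger difference, 0.58 in log2 units, of the same sign. Of all measured genes, 2.42% were called, 11 higher (0.0591%) and 440 lower (2.36%). With the authors' deposited value table the calls were 95 higher and 654 lower. Across all measured genes the median SD over arrays was 0.122. The median gene spot had a foreground intensity of 305.2 to 721.5 over a background of 45.5 to 67.0, and 64.0% to 81.5% of gene spots were well above background in each sample. All 15 probes of the 10 genes were well above background in all 4 samples, and 0 gene spots reached saturation. The scanner software's slope of observed on expected log ratio for spiked-in RNAs was 0.809 on array 1 and 0.705 on array 2, so ratios were compressed.

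None of the 10 Notch pathway genes was called (0 of 10, and 0 of their 15 probes; the rule took 2.1% of all measured probes). Ratios lay above 0 on both arrays for 3 genes, Notch1, Dll3 and Jag1, where 25.7% of all measured genes did so. Ratios lay below 0 on both arrays for 3 genes, Hes1, Hes5 and Hey1, where 34% of all measured genes did so. Of the 15 probes, 7 were above 0 on both arrays (30.4% of all measured probes) and 4 below (30.7%). The other 4 genes, Notch2, Dll1, Lfng and Hes7, had opposite signs on the arrays. These signs depended on the processing. With median centring in place of the intensity-dependent loess, Dll3, Jag1, Hes5 and Hey1 had opposite signs, and Lfng and Hes7 were above 0 on both arrays. The median over the 10 genes was 0.11 ± 0.01, against -0.018 for all measured genes. That SD is between the array medians, 0.02 and 0.03, and the median of the gene means lies above both. By role, the median was 0.19 for the receptors (array medians 0.18 and 0.20), 0.24 for the ligands (0.18 and 0.11, both lower) and -0.23 for the 4 Hes and Hey genes (-0.29 and -0.14). With median centring Hes1, Hes5, Hes7 and Hey1 read -0.28, -0.09, 0.32 and 0.07. The receptors and ligands then read 0.20 to 0.46, where the median of all measured genes was 0.121. Levels of the 2 genotypes did not overlap for 2 of the 10 genes, Notch1 and Hey1, where 27.3% of all measured genes had levels that did not overlap. In this bulk tissue, fewer cells of a type and less RNA per cell cannot be told apart.

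**Figure D1:**
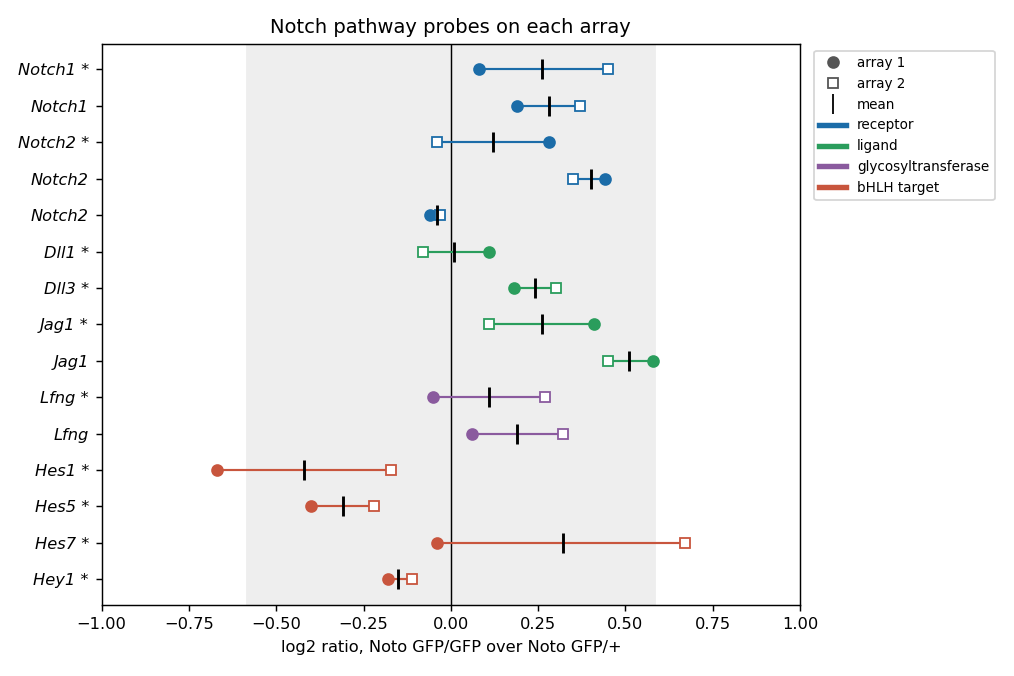
Log2 ratio of GFP/GFP over GFP/+ for each of the 15 probes of the 10 genes on array 1 (filled circle) and array 2 (open square), with the mean as a black tick; an asterisk marks the brightest probe of a gene and the grey band spans ratios under 1.5-fold. No probe has both arrays outside the band on the same side, and Hes1 (array 1, -0.67) and Hes7 (array 2, 0.67) leave it on 1 array each.

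The promoters shown next belong to Hes5, Hes7 and Lfng, which are targets of the pathway and, of the members with a promoter window, the only ones that held the RBPJ core motif. RefSeq (build GRCm38.p6) windows from 250 bases before to 50 after the start were given for 8 of the 10 genes, in 9 windows. Hes1 and Hey1 had no window in the table. The 250 bases before the start are printed 5′ to 3′ on the transcript strand, with each match to the RBPJ core in capitals.
Hes5, chr4:154960673-154960922, plus strand: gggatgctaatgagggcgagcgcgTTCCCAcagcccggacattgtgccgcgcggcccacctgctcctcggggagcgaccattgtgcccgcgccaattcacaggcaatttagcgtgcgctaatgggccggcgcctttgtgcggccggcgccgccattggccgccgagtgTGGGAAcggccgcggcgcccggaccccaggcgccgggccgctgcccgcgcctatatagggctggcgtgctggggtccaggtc
Hes7, chr11:69120203-69120452, plus strand: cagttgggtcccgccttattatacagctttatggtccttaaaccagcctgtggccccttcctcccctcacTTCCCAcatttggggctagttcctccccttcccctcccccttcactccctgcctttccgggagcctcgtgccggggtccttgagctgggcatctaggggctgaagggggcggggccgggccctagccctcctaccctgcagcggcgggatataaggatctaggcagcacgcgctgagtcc
Lfng, chr5:140607091-140607340, plus strand: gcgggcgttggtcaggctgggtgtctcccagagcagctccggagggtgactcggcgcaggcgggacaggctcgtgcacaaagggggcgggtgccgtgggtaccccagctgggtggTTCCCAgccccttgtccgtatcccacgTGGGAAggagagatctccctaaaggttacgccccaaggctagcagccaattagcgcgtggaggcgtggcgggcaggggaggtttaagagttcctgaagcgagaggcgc
The core searched was TGGGAA on both strands (TTCCCA on the printed strand marks the other). It began 226 and 82 bases before the start in Hes5, 180 in Hes7, and 135 and 108 in Lfng. Of 32851 windows of 300 bases in the table, 25.6% held the core and 3.79% held it more than once. The longer form GTGGGAA, which contains the core, stood in the same 3 genes and in 6.38% of all windows. The Hes and Hey binding motifs were also searched on both strands. The N box, CACNAG, stood in 5 of the 9 windows (Notch1, Notch2, Lfng, Hes7 and one of Dll1) and in 42.5% of all windows. The class C E box, CACGNG, stood in 6 of the 9 windows (Jag1, Notch2, Lfng, Hes7 and both of Dll1) and in 27.5% of all windows. Letters that satisfy both motifs were counted for each, and in Lfng an E box match overlaps the RBPJ match at 108 bases before the start. Ratios of the 3 genes with the RBPJ core had no common sign: Hes5 read -0.31, Hes7 0.32 and Lfng 0.11. A match is a description of letters, not of binding.

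The receptor Notch1 had ratios above 0 on both arrays and for both probes, but short of the size rule. Its brightest probe (chromosome 2, 26281261 to 26281319, build mm8) had levels of 11.78 and 11.89 in GFP/GFP on arrays 1 and 2, against 11.70 and 11.44 in GFP/+. Both homozygous samples were above both heterozygous ones, and the ratio was 0.26 ± 0.26 (SD, n = 2 arrays; 0.08 and 0.45). This probe was printed as 10 spots per array, whose ratios ranged from 0.03 to 0.12 on array 1 and from 0.42 to 0.48 on array 2. The SD over spots was 0.031 and 0.025, so the gap of 0.37 between arrays was far larger than the spread of spots within an array. The second Notch1 probe lies next to the first (26281319 to 26281378). Its levels were 10.95 and 11.12 in GFP/GFP against 10.76 and 10.75 in GFP/+, a ratio of 0.28 ± 0.13. Across all 245 gene probes with 10 spots, the median SD over spots was 0.057 on array 1 and 0.042 on array 2, and the median gap between arrays was 0.159.

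Notch2, the second receptor, had 3 probes that did not read alike. The brightest (chromosome 3, 98235396 to 98235455) had levels of 13.44 and 12.80 in GFP/GFP against 13.17 and 12.84 in GFP/+. The samples overlap, and the ratios of 0.28 and -0.04 average 0.12 ± 0.22. The probe at 98234325 to 98234384 had levels of 9.43 and 9.31 in GFP/GFP against 9.0 and 8.96 in GFP/+. There both homozygous samples lay above both heterozygous ones, with a ratio of 0.40 ± 0.06. The probe at 98232687 to 98232746 read -0.04 ± 0.02.

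Among the ligands, Dll1, the main activating ligand of the presomitic mesoderm, had the ratio nearest 0 of the 10 genes. Its probe (chromosome 17, 15072622 to 15072681) had levels of 15.58 and 15.69 in GFP/GFP against 15.47 and 15.77 in GFP/+, which overlap. The ratio was 0.01 ± 0.13. Dll1 was also printed as 10 spots per array: ratios ranged from 0.02 to 0.19 on array 1 and from -0.14 to -0.04 on array 2, with SDs over spots of 0.053 and 0.042. The spots of an array thus kept to one side of 0, and the arrays lay on opposite sides.

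Dll3, a divergent Delta ligand needed for somite boundaries in the mouse, read 0.24 ± 0.09 (chromosome 7, 28002504 to 28002563). Its levels were 15.34 and 15.94 in GFP/GFP against 15.16 and 15.64 in GFP/+. On each array the homozygote was above the heterozygote, by 0.18 and 0.30, while the array 2 heterozygote was above the array 1 homozygote. With median centring, Dll3 read 0.98 on array 1 and -0.18 on array 2.

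Jag1, a ligand of the Jagged family, had 2 probes with ratios above 0 on both arrays. The brighter one (chromosome 2, 136773138 to 136773197) had levels of 14.30 and 14.46 in GFP/GFP against 13.88 and 14.35 in GFP/+, and read 0.26 ± 0.22. With median centring this brighter probe read 1.05 on array 1 and -0.13 on array 2. The other (136774647 to 136774706) had levels of 8.36 and 8.82 in GFP/GFP against 7.77 and 8.38 in GFP/+. Its ratio of 0.51 ± 0.09, or 1.43-fold, was the highest of the 15 probes, at 0.58 and 0.45 on the arrays. With the scanner software's own log ratios this probe read 0.96 and 0.63 and passed the size rule. With the authors' deposited value table it read 0.96 and 0.57 and missed it on array 2.

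Lfng, which adds sugars to Notch receptors and so alters their response to ligands, read 0.11 ± 0.23 (chromosome 5, 140867744 to 140867803). Its levels were 10.77 and 10.43 in GFP/GFP against 10.83 and 10.16 in GFP/+, which overlap. The second probe (140866676 to 140866735) read 0.19 ± 0.19, with 0.06 on array 1 and 0.32 on array 2.

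**Figure D2:**
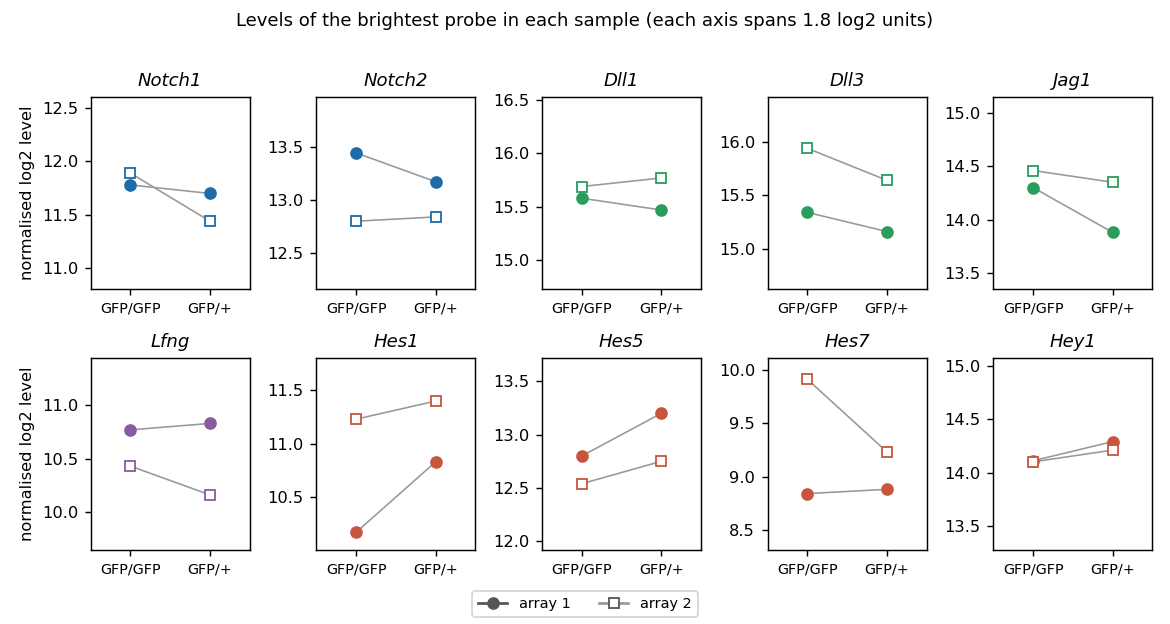
Normalised log2 level of the brightest probe of each gene in the GFP/GFP (left) and GFP/+ (right) sample of array 1 (filled circles) and array 2 (open squares), with a line joining the samples of an array, and all panels span the same number of log2 units. The lines slope the same way on both arrays for Notch1, Dll3, Jag1, Hes1, Hes5 and Hey1, and in opposite ways for Notch2, Dll1, Lfng and Hes7.

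The target genes encode repressors with a basic helix-loop-helix (bHLH) domain, and their ratios ran in both directions. Each has 1 probe. Hes1, a target in many tissues, had the lowest ratio of the 10 genes (chromosome 16, 29985644 to 29985939). Its levels were 10.17 and 11.23 in GFP/GFP against 10.83 and 11.40 in GFP/+. The homozygote was lower on both arrays, but by 0.67 on array 1 and 0.17 on array 2, so the ratio of -0.42 ± 0.35 reached the size rule on array 1 only. Its SD over arrays was above that of 92.6% of measured genes. Hes7, the clock repressor of the presomitic mesoderm, differed still more between arrays (chromosome 11, 68938350 to 68938409). Levels were 8.84 and 9.91 in GFP/GFP against 8.88 and 9.23 in GFP/+, and the ratios of -0.04 and 0.67 average 0.32 ± 0.50. That SD was above that of 97.8% of measured genes.

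The probes of Hes1, Hes7 and the dimmer Jag1 site are shown. Hes7 and Hes1 had the largest SDs over arrays of the 10 genes. The Jag1 probe passed the size rule with the scanner software's log ratios but not in the main processing. The sequences are the deposited probe letters, 5′ to 3′, in lower case throughout since no part is singled out.
Hes1 probe: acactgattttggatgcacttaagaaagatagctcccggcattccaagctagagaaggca
Hes7 probe: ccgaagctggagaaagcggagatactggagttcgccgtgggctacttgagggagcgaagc
Jag1 probe: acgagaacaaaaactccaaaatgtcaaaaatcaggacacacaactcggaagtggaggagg
The Hes1 probe has 60 bases but its coordinates span 296, so its letters are not contiguous in the genome, as in a probe over a splice junction. The other 2 probes span 60 bases each, Hes7 on the plus and Jag1 on the minus strand.

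Hes5, a target in neural tissue, read -0.31 ± 0.13 (chromosome 4, 153806038 to 153806097). Its levels were 12.80 and 12.54 in GFP/GFP against 13.20 and 12.75 in GFP/+. The homozygote was lower on each array, while its array 1 sample lay above the array 2 heterozygote. With median centring in place of the intensity-dependent loess, Hes5 read 0.14 on array 1 and -0.32 on array 2. Hey1, a target in mesoderm and vessels, had levels of 14.11 and 14.10 in GFP/GFP against 14.29 and 14.21 in GFP/+ (chromosome 3, 8646505 to 8646564). Both homozygous samples lay below both heterozygous ones, and the ratio of -0.15 ± 0.05 had the smallest SD of the 10 genes, but with median centring it turned to 0.07 (0.46 and -0.31), where the median of all measured genes was 0.121.

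**Figure D3:**
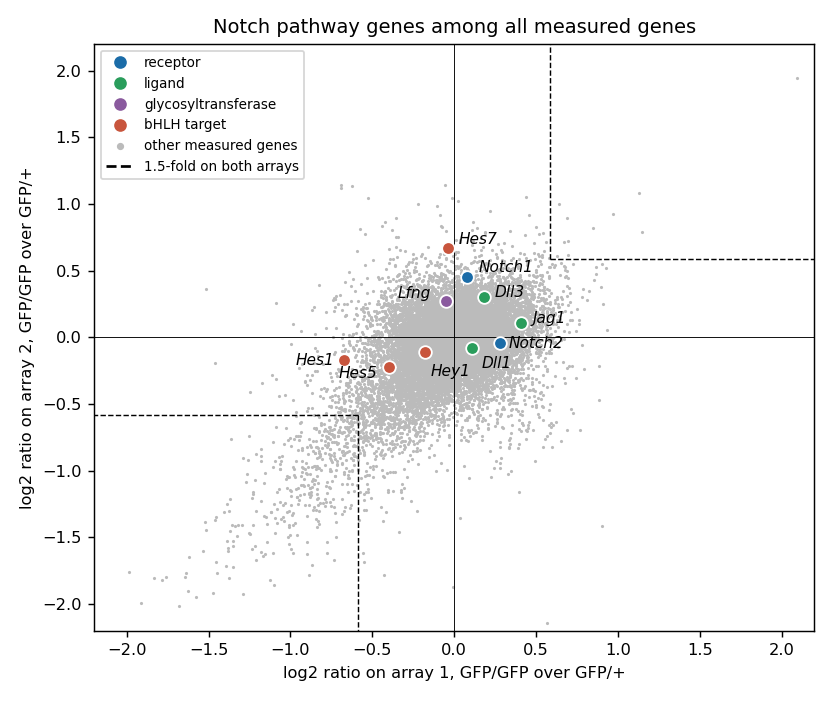
Log2 ratio of GFP/GFP over GFP/+ on array 1 (x axis) against array 2 (y axis) for 18612 measured genes (grey; 2 lie outside the axes) with the 10 Notch pathway genes coloured by role. Dashed lines enclose genes called by the 1.5-fold rule, and no Notch pathway gene lies inside them.

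The rest of the Notch machinery gave no call either. Of 60 further genes in 6 lists, 59 were measured and 0 were called, where the rule took 2.42% of all measured genes. Their median was -0.017, with 16 above 0 on both arrays and 19 below, against 25.7% and 34% of all measured genes. Among other receptors and ligands (7 of 7 measured, median -0.08 ± 0.03), Dlk2, a non-canonical ligand, read -0.40 ± 0.06 and Dll4, the ligand of arterial endothelium, -0.23 ± 0.10. Among genes for glycosylation and ligand uptake (10 of 10, median -0.02 ± 0.07), the fucosyltransferase gene Pofut1 read -0.31 ± 0.24, with 0.16 for its other probe, and the ubiquitin ligase gene Neurl1a -0.23 ± 0.27, with 0.03 for its other probe.

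Proteases that release the intracellular domain (9 of 9, median of 0.00 with array medians of 0.01 and 0.18) had ratios from -0.48 to 0.39. Aph1b, a γ-secretase subunit, read -0.48 ± 0.18 on its brightest probe and -0.42 and -0.88 on the others. The probe at -0.88 passed the rule on both arrays (-0.89 and -0.87), and signal shared with the closely related Aph1c was not tested. Ncstn, the γ-secretase subunit nicastrin, read 0.39 ± 0.03, with levels of 8.43 and 8.93 in GFP/GFP against 8.06 and 8.51 in GFP/+. It moved beyond that SD with other processing: 0.33 with median centring, 0.54 with the scanner software's log ratios and 0.55 with the value table. In the nuclear complex and co-repressors (14 of 15 measured, without Maml3; median 0.04 ± 0.02), the co-repressor genes Tle4 and Spen read 0.49 ± 0.31 and -0.32 ± 0.08. Negative regulators (12 of 12, median 0.05 ± 0.12) had Bcl6, a transcriptional repressor, at 0.32 ± 0.30 and Numbl, related to the Notch inhibitor Numb, at 0.26 ± 0.21. All 7 genes listed as other Hes and Hey family targets had means below 0 on their brightest probes (highest -0.03, lowest -0.24, median -0.10 ± 0.06). The median of all measured genes, -0.018, was below 0 too. Hes2 and Heyl, both at -0.03, and Helt, at -0.06, lay close to it. Of the 7, 4 were below 0 on both arrays, against 34% of all measured genes, and 6 were well above background in all 4 samples. Bhlhe40, a related bHLH repressor, read -0.24 ± 0.16 and Hes6, which opposes Hes1, -0.14 ± 0.28, or 0.09 with median centring. The other Hes6 probe read 0.12. A dimmer second probe of Hes2 read -0.66 on both arrays and passed the rule, while its brightest read -0.03 ± 0.12. These 2 probes, of Aph1b and Hes2, were named after their values were seen, and 2.1% of all measured probes passed the rule.

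**Figure D4:**
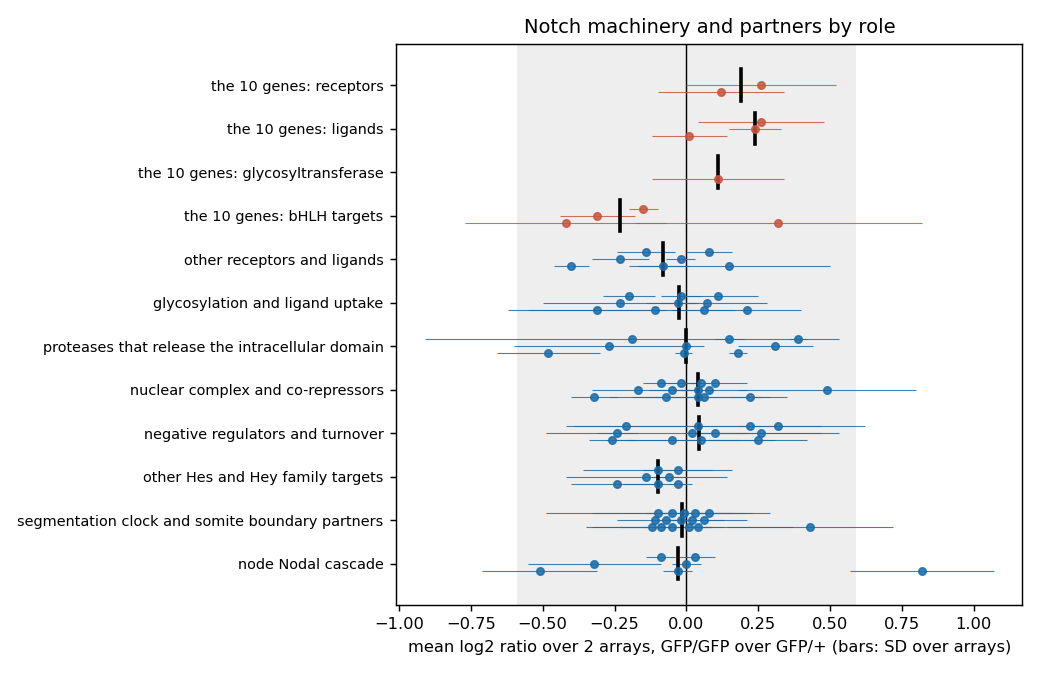
Mean log2 ratio of GFP/GFP over GFP/+ with its SD over 2 arrays for each measured gene of the Notch pathway and its partners, by role; black bars are list medians, red marks the 10 genes, blue the others, and the grey band spans ratios under 1.5-fold. Lefty2, at 0.82, is the 1 gene outside the band.

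Downstream of the pathway, segmentation clock and somite boundary partners had 0 of 16 measured genes called and a median of -0.01 ± 0.04. No probe was matched to Ripply1 or Ripply2. Tbx18, a transcription factor gene of the somites, read 0.43 ± 0.29 (0.14 for its other probe), and the Wnt co-activator gene Bcl9l -0.12 ± 0.21. In the Nodal cascade beside the node, Nodal read -0.03 ± 0.05, with levels of 12.24 and 12.12 in GFP/GFP against 12.31 and 12.11 in GFP/+. Its antagonist Dand5 read -0.09 ± 0.05. Of these 7 genes, Lefty2, a Nodal antagonist, was higher at 0.82 ± 0.25. Lefty1, the related antagonist, read -0.51 ± 0.20 and missed the rule.

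Markers of the tissues that use these genes were read beside them. All 12 node and notochord markers were well above background in all 4 samples. Of these, 7 had ratios below 0 on both arrays, 3 had ratios above 0 on both, and 0 were called. For this and the other marker lists, the shares over all measured genes were 34% below, 25.7% above and 2.42% called. The median of the 12 was -0.15 ± 0.03, with Gsc at -0.66 ± 0.20 and Foxd4 at -0.57 ± 0.09 farthest from 0. The summed level of the list, on a linear intensity scale, was 194540 in GFP/GFP against 197258 in GFP/+ on array 1. On array 2 it was 200413 against 184476, the opposite order. A summed level follows the brightest probes of its list, here Foxa2, Cer1 and T, and is no gauge of the amount of a tissue. Foxa2 itself read -0.11 on array 1 and 0.3 on array 2. Neural plate markers, of interest beside Hes5, had a median of -0.14 ± 0.09, with 6 of 11 measured below 0 on both arrays, 2 above and 0 called. Their summed level was 61777 in GFP/GFP against 76973 in GFP/+ on array 1, and 60982 against 66077 on array 2. Zic2 (-0.64 ± 0.32) and Pax6 (0.45 ± 0.14) lay farthest from 0. Presomitic and caudal mesoderm markers (a list that includes Dll1), of interest beside Dll1, Dll3, Hes7 and Lfng, had a median of -0.01 ± 0.03. Of these, 1 of 12 was above 0 on both arrays, 3 were below and 0 were called. Summed levels were 389688 in GFP/GFP against 400927 in GFP/+ on array 1, and 407302 against 400124 on array 2. Cdx1 read -0.54 ± 0.30 and Hoxb1 -0.26 ± 0.29. Endothelium and blood markers, of interest beside Hey1 and Jag1, had a median of 0.04 ± 0.03, with 5 of 10 measured above 0 on both arrays, 4 below and 0 called. Etv2 (-0.59 ± 0.21, with -0.44 on array 2) and Tal1 (-0.47 ± 0.27) lay farthest from 0, both short of the rule. The summed level was 44681 in GFP/GFP against 49251 in GFP/+ on array 1, and 43117 against 43587 on array 2. The brightest gene in that sum was Sox17, which is also in the definitive endoderm list and read 0.06 ± 0.06. Definitive endoderm (-0.05 ± 0.02; Foxa3 -0.51 ± 0.02, Cxcr4 -0.43 ± 0.31 with 0.06 for its other probe) and extraembryonic lists (0.02 ± 0.06; Prl3d1 0.36 ± 0.09, Elf5 -0.26 ± 0.03) had 0 called. The part of these tissues in the Notch pathway ratios was not tested.

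**Figure D5:**
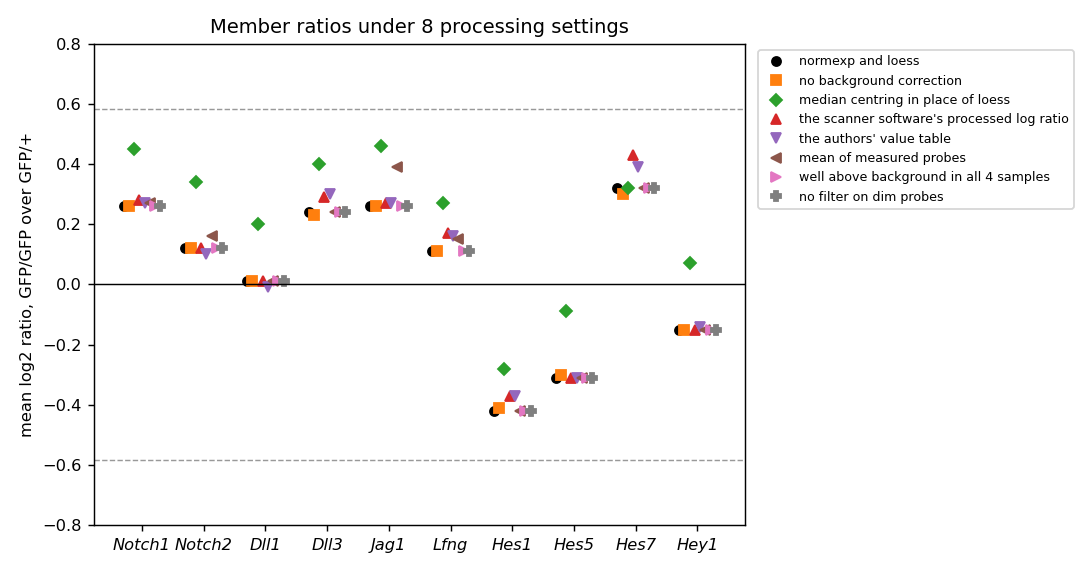
Mean log2 ratio of GFP/GFP over GFP/+ of the 10 genes under 8 ways of processing the arrays, with dashed lines at 1.5-fold. Every mean stays inside the lines; Hey1 turns to 0.07 with median centring and Dll1 to -0.01 with the authors' value table.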

How the data were processed

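The 2-colour arrays were, per the file headers, read by the authors with Agilent Feature Extraction (version 9.5.3.1 per the submitters' processing notes), which wrote foreground, background and processed intensity values, a log10 ratio of red over green, and flags per spot (unit other). The authors' deposited value table gives 1 intensity per sample: columns exceeded the matching processed intensity by a factor of 1.07 on array 1 and 1.28 on array 2, floored at 15, with medians of 95.1 to 110.6; the method behind that is unstated. Files of paired samples were identical, so each array was read once.

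limma 3.58.1 in R 4.3.3 applied normexp (offset 50) and loess, with control spots at weight 0 and outlier spots left out; levels used Aquantile between arrays. The array with exchanged dyes was turned. A probe counted as measured if 1 genotype or both stood well above background on each array. The brightest measured probe represented a gene. Names came from accessions through RefSeq (33099 of 41174 probes matched). Genes named beside the 10 are the called and the 2 farthest from 0 in each list, plus Nodal and Dand5, except 1 gene that is not reported here; none was picked by likeness of pattern. The members and lists were chosen with earlier results of these data known. The steps were tested on simulated data. Summaries and plots used Python 3.11.15 (pandas 2.3.3, numpy 2.4.6, matplotlib 3.10.9). Alternatives were no background correction, the value table, median centring, log ratios of the scanner software, the mean of probes, 2 other filters and single arrays. The number of arrays limits the precision.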

Additional observations from a re-analysis of the deposited data

How the results depend on the processing

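None of the 10 genes was called (0) under any of the 7 settings that keep both arrays. The count below 0 on both arrays was 3 under 6 of them and 1 with median centring, where Dll1 read 0.95 on array 1 and -0.55 on array 2. Dll3 and Jag1, above 0 on both arrays under the other 6, had opposite signs with median centring. The cause was not tested. The median over the 10 genes, 0.113, became 0.293 with median centring, where the median of all genes moved to 0.121; it was 0.143 with the software's log ratios, 0.13 with the value table and 0.153 with the mean of probes. Of 70 values of members under these settings, 5 moved beyond their SD over arrays and 2 changed sign, for Hey1 and Dll1. All 5 that moved were with median centring: Notch2, Dll1, Dll3, Hes5 and Hey1. Many of the 70 could not move. The 2 other filters kept every probe of the 10 genes, and the mean of probes is the same value for the 6 genes with 1 probe. All called genes numbered 817 with the software's log ratios (101 higher, 716 lower) and 749 with the value table (95 and 654), against 451 (11 and 440); the cause was not tested. On single arrays, 1 member was called each time, Hes7 without array 1 and Hes1 without array 2. All called genes then numbered 1061 (5.7%) without array 1 and 772 (4.15%) without array 2. Members below 0 numbered 5 each time, where the median of all genes was itself below 0 (-0.027 and -0.019). The median over the 10 genes was 0.033 and 0.018. Further pathway genes, counted here with the somite and Nodal lists, had 2 and 5 called. With both arrays 1 of them was called, the Nodal antagonist Lefty2. No paired analysis was possible because no test was made with 1 pool per genotype, and each ratio is taken within an array. What limits the values is 1 RNA pool per genotype, a pair of technical arrays, compressed ratios, and 1 probe for 6 of the 10 genes.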
